A study of Mus musculus with 33 samples.

Results

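The 34 genes described here carry glucose through glycolysis, divert it into the pentose phosphate pathway, or belong to the hypoxia-inducible factor (HIF) system, and they were followed across colonic regulatory T cells (Treg) of mice. Members were the rows of the count table whose Ensembl identifier maps to a fixed list of symbols, 34 genes of 53465 in the table. They are the glucose transporters Slc2a1 and Slc2a3, the glycolytic enzymes Hk1, Hk2, Gpi1, Pfkl, Pfkm, Pfkp, Aldoa, Aldoc, Tpi1, Gapdh, Pgk1, Pgam1, Eno1 and Pkm, the regulatory enzyme Pfkfb3, the lactate dehydrogenases Ldha and Ldhb and the lactate transporters Slc16a1 and Slc16a3. The others are Pdk1, which slows the use of pyruvate in the mitochondrion, Hif1a with its regulators Vhl, Egln1 and Egln3, the HIF target genes Bnip3, Mif and P4ha1, the phosphoglucomutase family gene Pgm2, and the pentose phosphate enzymes G6pdx, Pgd, Tkt and Taldo1. Aldoa maps to a pair of identifiers, of which one had no counts and was set aside. All 34 members passed the filter on low counts.

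The mice carried a Foxp3-yfp reporter on the B6 background, which marks Treg by the promoter of Foxp3, their lineage factor. Colon CD45+TCR+CD4+Foxp3+ cells were sorted by TSLPR, the receptor for the epithelial cytokine TSLP (gene Crlf2), and ST2, the receptor for IL-33 (gene Il1rl1), with 200 cells in a library. The 4 gates, named by each receptor's presence (+) or absence (-), were taken from every animal. Mice 1 to 4 were naive and mice 5 to 8 had cancer arising in an inflamed colon, which gave 32 libraries in 8 groups of 4. Cancer mice received azoxymethane at 10 mg/kg and then 3 cycles of dextran sulfate sodium for 7 days each, and were killed 2 weeks after the last cycle. No group with only one of the agents was analysed here, so tumour, colitis and chemicals cannot be told apart. One further library held naive Foxp3-negative CD44low T cells. The study asks how TSLP and IL-33 act on Treg during colorectal cancer.

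Glycolysis breaks glucose down to pyruvate, and lactate dehydrogenase returns pyruvate to lactate when it is not burned in mitochondria. The pentose phosphate pathway branches off after the first phosphorylation step and supplies NADPH and ribose. HIF-1, of which Hif1a encodes the regulated subunit, switches on many of these genes, while the Egln prolyl hydroxylases and Vhl mark that subunit for destruction when oxygen is present. In T cells these pathways rise with activation and growth, and Treg can run on both glycolysis and oxidative metabolism.

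The sequences below are the RefSeq promoters (GRCm38.p6, 250 bases before to 50 after the gene start, 5′ to 3′ on the gene's strand) of 7 members on which the results turn, so that the letters of the HIF core motif can be seen. Capitals mark ACGTG and the related GCGTG on either strand, read as CACGT or CACGC on the other one. Where matches overlap, they form 1 longer run. The Tpi1 promoter lies at chr6:124814109-124814408 (- strand), that of Gapdh at chr6:125165724-125166023 (- strand), that of Pgk1 at chrX:106186850-106187149 (+ strand), that of Hif1a at chr12:73907617-73907916 (+ strand), that of P4ha1 at chr10:59323046-59323345 (+ strand), that of G6pdx at chrX:74428831-74429130 (- strand), and the first of the Pdk1 promoters at chr2:71872974-71873273 (+ strand).
Tpi1: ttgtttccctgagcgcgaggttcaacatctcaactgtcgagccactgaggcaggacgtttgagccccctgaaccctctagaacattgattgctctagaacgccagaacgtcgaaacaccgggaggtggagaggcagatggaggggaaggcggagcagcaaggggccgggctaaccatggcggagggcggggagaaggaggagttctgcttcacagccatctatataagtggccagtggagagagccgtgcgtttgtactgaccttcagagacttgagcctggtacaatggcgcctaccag
Gapdh: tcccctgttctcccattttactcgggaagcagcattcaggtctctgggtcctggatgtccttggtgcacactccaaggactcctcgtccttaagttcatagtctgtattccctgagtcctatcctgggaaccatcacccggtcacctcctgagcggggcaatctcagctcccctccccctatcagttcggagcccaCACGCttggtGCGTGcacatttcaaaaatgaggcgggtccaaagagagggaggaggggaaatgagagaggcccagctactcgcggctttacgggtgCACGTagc
Pgk1: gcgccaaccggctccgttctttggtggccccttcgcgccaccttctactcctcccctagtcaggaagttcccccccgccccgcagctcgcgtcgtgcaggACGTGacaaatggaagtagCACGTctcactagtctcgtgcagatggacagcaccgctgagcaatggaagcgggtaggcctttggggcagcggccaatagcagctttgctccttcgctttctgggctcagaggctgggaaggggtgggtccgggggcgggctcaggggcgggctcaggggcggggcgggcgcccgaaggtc
Hif1a: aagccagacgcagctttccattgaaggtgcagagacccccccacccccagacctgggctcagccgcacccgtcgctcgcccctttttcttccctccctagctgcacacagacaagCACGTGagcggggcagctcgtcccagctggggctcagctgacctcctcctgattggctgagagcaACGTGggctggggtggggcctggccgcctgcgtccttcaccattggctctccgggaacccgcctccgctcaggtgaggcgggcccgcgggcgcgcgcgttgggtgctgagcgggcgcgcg
P4ha1: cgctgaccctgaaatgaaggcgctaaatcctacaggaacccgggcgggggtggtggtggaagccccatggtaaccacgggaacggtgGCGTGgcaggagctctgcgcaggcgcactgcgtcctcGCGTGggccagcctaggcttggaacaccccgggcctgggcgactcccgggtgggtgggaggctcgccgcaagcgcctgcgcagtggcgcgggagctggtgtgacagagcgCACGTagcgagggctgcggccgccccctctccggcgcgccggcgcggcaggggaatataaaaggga
G6pdx: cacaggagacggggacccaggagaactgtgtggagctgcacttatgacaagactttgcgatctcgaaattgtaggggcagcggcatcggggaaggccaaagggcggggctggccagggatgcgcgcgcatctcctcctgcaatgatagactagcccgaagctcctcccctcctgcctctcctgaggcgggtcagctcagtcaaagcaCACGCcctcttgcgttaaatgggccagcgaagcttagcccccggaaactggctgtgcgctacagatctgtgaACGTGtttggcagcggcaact
Pdk1: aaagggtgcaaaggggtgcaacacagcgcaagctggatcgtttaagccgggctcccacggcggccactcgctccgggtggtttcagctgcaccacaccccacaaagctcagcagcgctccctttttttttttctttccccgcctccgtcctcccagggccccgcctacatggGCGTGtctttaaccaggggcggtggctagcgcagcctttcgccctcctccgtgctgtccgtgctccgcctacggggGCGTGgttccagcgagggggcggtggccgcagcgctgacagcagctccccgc

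Promoters were matched for 33 of the 34 members, all but Slc2a3. Of these 33, 22 held ACGTG in at least 1 promoter, against 21.8% of all genes in the promoter table. Counted by promoter, 25 of 47 member promoters held it (53.2%), against 19.6% of all 32851 promoters of that length. GCGTG was in 55.3% of member promoters and 32.4% of all, and the palindrome CACGTG, which contains ACGTG on both strands, in 12.8% and 7.2%. The Tpi1 promoter above held neither ACGTG nor GCGTG, and the same held for the promoters of Gpi1 and Vhl. Pgk1 and Hif1a held ACGTG only, Gapdh, P4ha1 and G6pdx held both, and the Pdk1 promoter shown held GCGTG only. A match is a run of letters and says nothing of binding. The promoters of all genes were not matched to those of the members in base composition, so these shares cannot be read as particular to HIF.

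Libraries held 4038718 to 8839946 counts (median 6433005). The summed markers of Treg and T cells (Foxp3, Il2ra, Ikzf2, Ctla4, Cd3e, Cd3g, Cd4 and Trac, all detected in every library) ranged from 4490.0 to 6613 CPM (counts scaled to a common library size, with edgeR's TMM factors). The TSLPR+ST2+ libraries of cancer mice held 4038718 to 5816224 counts and did not overlap those of naive mice in depth (6607867 to 8839946). Crlf2 in mouse 5 went against the gate order among ST2+ cells, at 30.5 CPM in its TSLPR-ST2+ library and 25.2 CPM in its TSLPR+ST2+ library. The TSLPR+ST2+ library of mouse 7 stood apart by epithelial markers, which summed to 4662 CPM against at most 219.5 CPM in any other library. Each call lost without the 2 ST2+ libraries of mouse 5, or without this library of mouse 7, is given beside its result. Libraries of different gates came from the same animals, and no label says whether naive and cancer mice were sorted together.

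Levels were compared between genes as CPM per kilobase of exon. The highest medians over the 32 Treg libraries were those of Ldha (429.8 CPM per kilobase), Mif (369), Aldoa (214), Pkm (162), Gapdh (152), Taldo1 (142) and Eno1 (133). The lowest were those of Hk2 (0.706), Slc16a3 (1.33), Pfkfb3 (2.10) and Bnip3 (2.78). Among related genes, several pairs had one clearly more abundant form. Hexokinase 1 (Hk1, 19.0 CPM per kilobase) stood far above hexokinase 2 (Hk2, 0.706), Aldoa (214) above Aldoc (4.51), and Ldha (429.8) above Ldhb (68.0). Among the phosphofructokinase subunits, Pfkl (20.6) and Pfkp (19.7) were close and their libraries overlapped (12.5 to 34.8 and 14.3 to 26.2 CPM per kilobase), while Pfkm was lower (4.93). The glucose transporters Slc2a1 (16.2) and Slc2a3 (14.3) also overlapped, at 4.12 to 38.9 and 4.92 to 34.6 CPM per kilobase. For lactate export Slc16a1 (9.45) exceeded Slc16a3 (1.33), and of the prolyl hydroxylases Egln1 (12.5) exceeded Egln3 (6.29). Levels of 11 members are uncertain, since over 10% of their 58-base windows also occur in exons of other annotated genes, most of all in Gapdh (81.8%), Mif (71.5%), Eno1 (70.0%) and Pgk1 (67.8%). How the counting treated reads of those windows, and its strand setting, were not given in the sources used here. Overlapping genes may therefore affect a member's count, in a direction not known here. They lie on the other strand (Ikbkg at G6pdx, Pitrm1 at Pfkp, Gm26762 at Gpi1, Gm45507 at Bnip3 and Gm15283 at Hif1a) or on the same one (Gm49759 at Pkm, Gm26513 at Pfkm and Gm49321 at Hif1a).

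The question of the TSLPR gate was whether Treg that carry the TSLP receptor differ in these genes. In TSLPR+ Treg 7 enzymes of glycolysis rose, as did Hif1a, while P4ha1 and Pdk1 fell. By edgeR's quasi-likelihood test on all 14861 genes, 10 of 34 members rose and 3 fell (Benjamini-Hochberg adjusted p under 0.05), where 13.4% of all genes were called. Calls took a larger share of the members than of all genes. This difference in share is a description and was not tested. The members were chosen with earlier results of these data known, and all genes were not matched to them in level. The 10 were Gpi1, Aldoa, Tpi1, Gapdh, Pgk1, Pgam1, Pkm, Hif1a, Egln3 and Taldo1, and the 3 were P4ha1, Pdk1 and Eno1. The median log2 difference of the 34 members was 0.10, against 0.01 over all genes. Of these 13, 9 moved the same way in all 8 mice, as did Aldoc and Slc16a3, which did not pass. In 17 alternative settings, 8 of the 13 calls were kept throughout, those of Aldoa, Gapdh, Gpi1, Hif1a, P4ha1, Pgk1, Pkm and Tpi1.

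**Figure D1:**
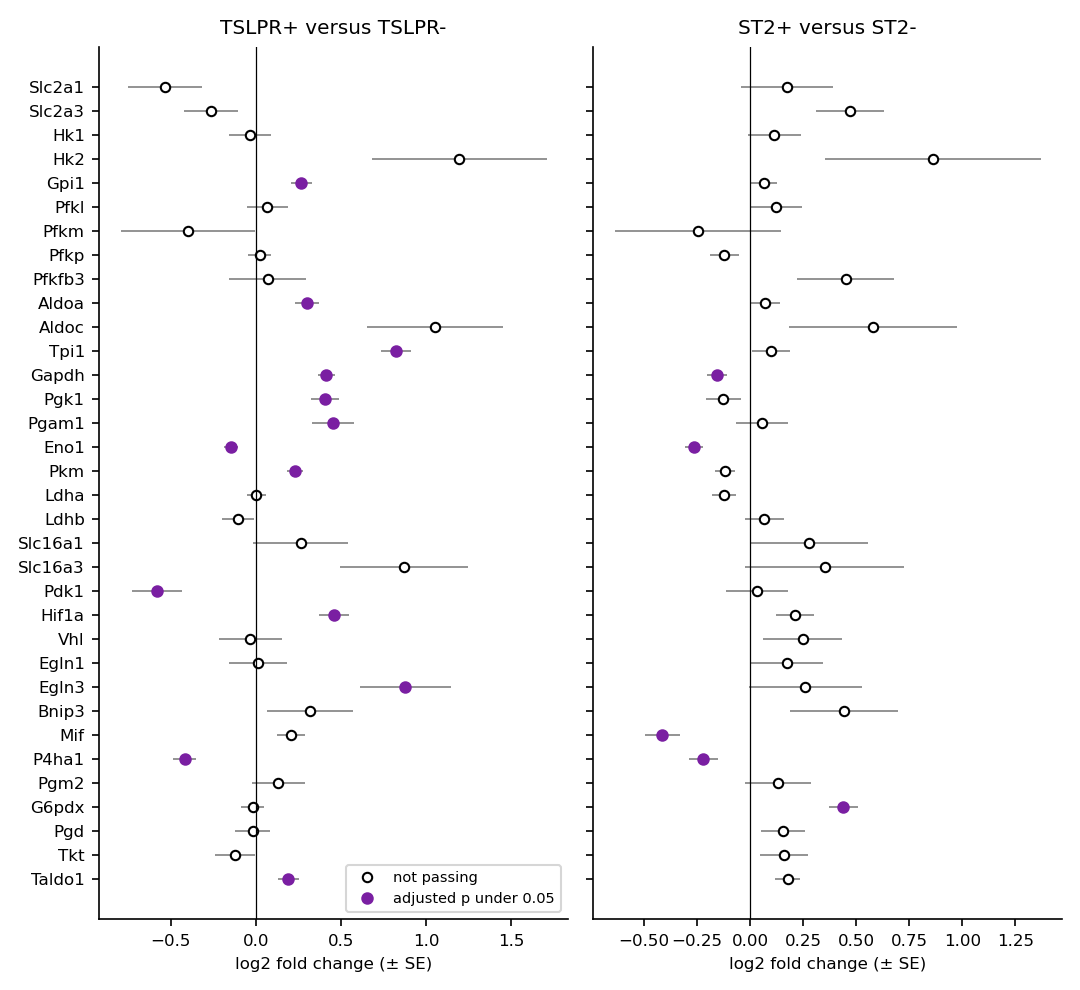
Log2 difference with its standard error for each of the 34 members between TSLPR+ and TSLPR- Treg (left) and between ST2+ and ST2- Treg (right), n = 16 libraries an arm, filled points with an adjusted p under 0.05. The 10 members higher and 3 lower in TSLPR+ Treg include Tpi1 at 0.82 and Pdk1 at -0.58, and in ST2+ Treg G6pdx was higher and 4 members were lower.

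No glucose transporter, hexokinase or phosphofructokinase subunit passed the test. Slc2a1, the main glucose importer of activated T cells, had 46.1 ± 19.9 CPM in TSLPR+ and 67.1 ± 25.4 CPM in TSLPR- libraries (SD, n = 16 each; log2 difference -0.53 ± 0.22 (SE), adjusted p = 0.105 by edgeR), and its lower mean in 7 of 8 mice did not pass. Slc2a3 (-0.26), Hk1 (-0.03), Pfkl (0.07), Pfkm (-0.40), Pfkp (0.02) and Pfkfb3 (0.07), given as log2 differences, did not pass either. Hk2, the inducible hexokinase, was at 1.03 to 15.4 (median 2.95) CPM in TSLPR- libraries and 0.338 to 111 (median 6.23) CPM in TSLPR+ libraries. The highest value, 111 CPM, came from the mouse 7 library with epithelial markers, while the other 31 libraries had at most 15.4 CPM. Gpi1, which turns glucose 6-phosphate into fructose 6-phosphate, rose from 316 ± 41.6 to 380.5 ± 42.7 CPM (SD, n = 16 each; log2 difference 0.27 ± 0.06 (SE), adjusted p = 0.00354 by edgeR). It was higher in TSLPR+ cells of all 8 mice.

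Triose phosphate isomerase (Tpi1, ENSMUSG00000023456, chromosome 6, 124810586 to 124814296, - strand), which interconverts the 3-carbon sugars made by aldolase, showed the largest difference among the 13 called members after Egln3. In naive mice its CPM were 123, 141, 151 and 147 in TSLPR-ST2- libraries, 166, 192, 167 and 206 in TSLPR-ST2+, 295, 349, 322 and 357 in TSLPR+ST2- and 298, 256, 199 and 209.5 in TSLPR+ST2+. In cancer mice they were 158, 174, 160.1 and 144 in TSLPR-ST2- libraries, 157, 226, 199 and 166 in TSLPR-ST2+, 294, 303, 303 and 225 in TSLPR+ST2- and 282, 293, 529 and 226 in TSLPR+ST2+. Every TSLPR+ST2- library lay above every TSLPR-ST2- library of the same status, with no overlap. Tpi1 was 1.77-fold higher in TSLPR+ cells (log2 difference 0.82 ± 0.09 (SE), adjusted p = 1.27e-07 by edgeR) and without the mouse 7 library, which had the highest value, the log2 difference was 0.75. Aldolase A (Aldoa, ENSMUSG00000030695, chromosome 7, 126795234 to 126800751, - strand) rose from 569 ± 68.0 to 700.1 ± 127 CPM (SD, n = 16 each; log2 difference 0.30 ± 0.07 (SE), adjusted p = 0.00447 by edgeR).

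Gapdh (ENSMUSG00000057666, chromosome 6, 125161715 to 125166467, - strand), the dehydrogenase that starts the energy-yielding steps, gave 539, 727, 579 and 595 CPM in naive TSLPR-ST2- libraries, 557, 596, 524 and 555 in TSLPR-ST2+, 880.3, 929, 899 and 917 in TSLPR+ST2- and 785, 718, 537 and 631 in TSLPR+ST2+. In cancer mice Gapdh had 577, 622, 596 and 542 CPM in TSLPR-ST2- libraries, 548, 571, 602 and 535 in TSLPR-ST2+, 726, 772, 845 and 720.3 in TSLPR+ST2- and 793, 746, 838 and 672 in TSLPR+ST2+. The TSLPR+ST2- libraries of either status stood above all TSLPR-ST2- libraries of that status, and the TSLPR+ST2+ libraries of naive mice overlapped their TSLPR- neighbours. The difference was 0.41 ± 0.05 (SE) on the log2 scale (edgeR adjusted p = 4.17e-07). Pgk1 (ENSMUSG00000062070, chromosome X, 106187100 to 106203699, + strand), which makes the first ATP of the chain, gave 55.6, 89.3, 59.1 and 67.3 CPM in naive TSLPR-ST2- libraries and 109, 98.6, 116 and 107 in naive TSLPR+ST2-. In cancer mice Pgk1 had 84.7, 65.3, 85.3 and 58.1 CPM in TSLPR-ST2- libraries and 82.6, 94.6, 105 and 111 in TSLPR+ST2-, which overlapped, while the naive gates did not. Its difference was 0.41 ± 0.08 (SE) (edgeR adjusted p = 0.000933), with higher means in 7 of 8 mice.

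The next enzyme, Pgam1, rose from 23.9 ± 5.56 to 32.6 ± 4.18 CPM (SD, n = 16 each; log2 difference 0.45 ± 0.12 (SE), adjusted p = 0.0118 by edgeR). Pgam1 kept the call in every fit that left out a mouse (highest edgeR adjusted p = 0.0469), but not in all 17 alternatives. Eno1 (ENSMUSG00000063524, chromosome 4, 150236721 to 150248879, + strand), the enolase that follows it, moved the other way. It had 734 ± 66.4 CPM in TSLPR- and 667 ± 102 CPM in TSLPR+ libraries (SD, n = 16 each; log2 difference -0.15 ± 0.04 (SE), adjusted p = 0.0191 by edgeR), lower in 8 of 8 mice. The call was lost in 4 of 8 fits that left out a mouse (without mouse 2, 3, 5 or 7) and without the ST2+ libraries of mouse 5 (edgeR adjusted p = 0.0566). Pyruvate kinase (Pkm, ENSMUSG00000032294, chromosome 9, 59656368 to 59679375, + strand) rose from 772 ± 75.7 to 913 ± 146 CPM (log2 difference 0.23 ± 0.05 (SE), adjusted p = 0.00139 by edgeR). Ldha, the lactate dehydrogenase subunit that favours lactate formation, was at 1421 ± 122 CPM in TSLPR- and 1432 ± 246 CPM in TSLPR+ libraries (log2 difference 0.00 ± 0.06 (SE)) and did not pass. Ldhb (-0.10) and the lactate transporters Slc16a1 (0.26) and Slc16a3 (0.87), as log2 differences, did not pass either.

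**Figure D2:**
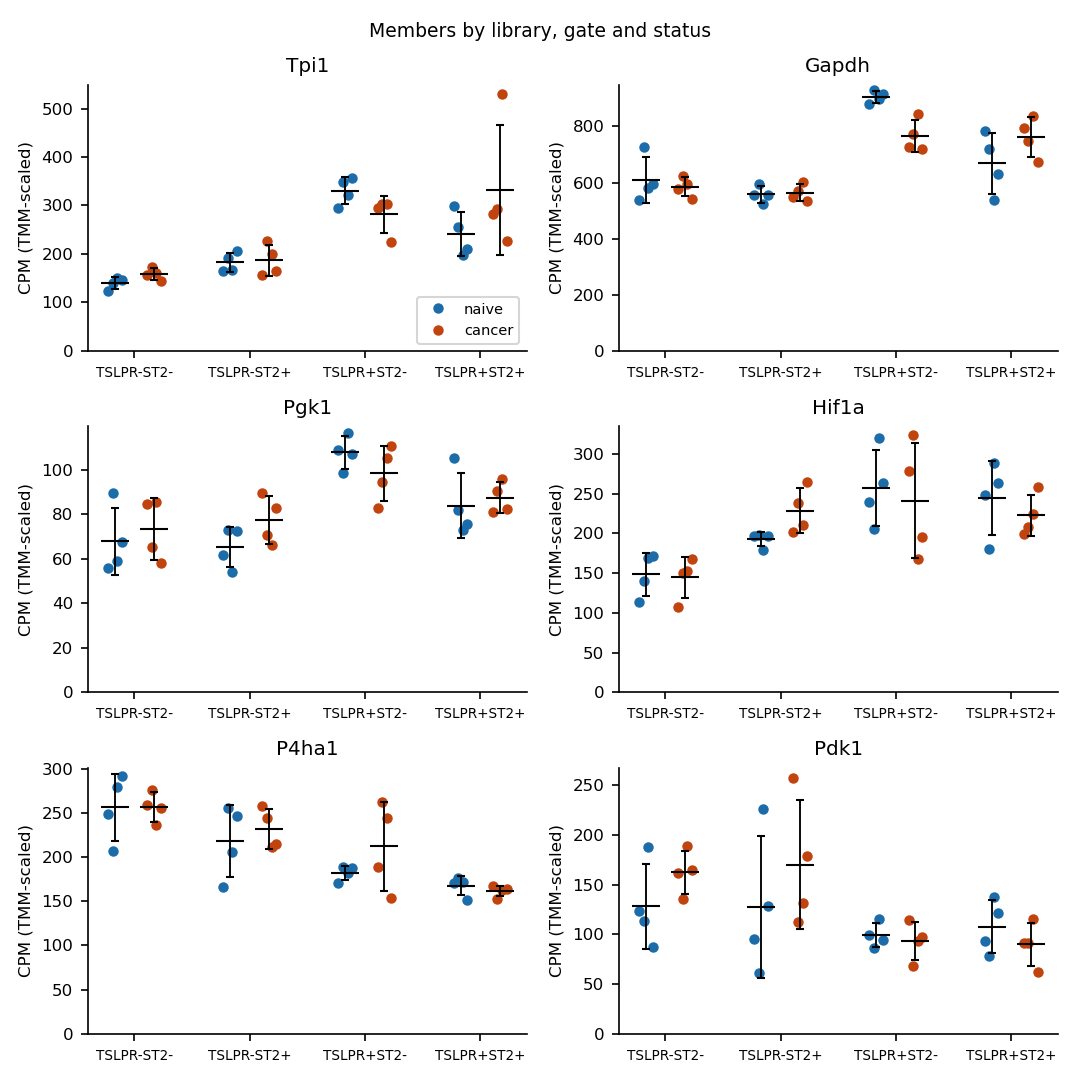
CPM of 6 members in each of the 32 Treg libraries by gate and status (points, 4 libraries a group; horizontal bar and whiskers, mean ± SD). Tpi1, Gapdh and Pgk1 were highest on average in TSLPR+ gates, Hif1a was lowest on average in TSLPR-ST2-, and P4ha1 and Pdk1 were lower in TSLPR+ gates.

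Hif1a (ENSMUSG00000021109, chromosome 12, 73901375 to 73947530, + strand) encodes the oxygen-regulated subunit of HIF-1 and was lowest on average in the double-negative gate. Naive TSLPR-ST2- libraries had 114, 139.5, 169 and 172 CPM and naive TSLPR+ST2- libraries 240.1, 206, 319 and 264, against 196, 198, 179.5 and 197 in TSLPR-ST2+ and 248, 179.9, 289 and 263 in TSLPR+ST2+. In cancer mice the TSLPR-ST2- libraries had 108, 151, 153 and 168 CPM, and TSLPR+ST2- libraries 278, 324, 168 and 195, so that the lowest of the second group fell just under the highest of the first. Cancer TSLPR-ST2+ libraries had 202, 238, 210.3 and 265 CPM and cancer TSLPR+ST2+ libraries 199, 208, 225 and 258. Over all libraries Hif1a was 1.37-fold higher in TSLPR+ cells, in 8 of 8 mice (log2 difference 0.46 ± 0.09 (SE), adjusted p = 0.00074 by edgeR).

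Egln3, the prolyl hydroxylase that HIF itself induces, rose from 12.6 ± 6.76 to 23.4 ± 10.7 CPM (SD, n = 16 each; log2 difference 0.88 ± 0.27 (SE), adjusted p = 0.0272 by edgeR), higher in 7 of 8 mice. The call was lost in 5 of 8 fits that left out a mouse (without mouse 1, 2, 4, 7 or 8), and without the mouse 7 library of the TSLPR+ST2+ gate (edgeR adjusted p = 0.0626) or with the mitochondrial share of counts as a covariate (0.0862). Egln1 (0.02) and Vhl (-0.03) did not pass, values being log2 differences. Among the HIF targets, Bnip3 (0.32) and Mif (0.20) did not pass.

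P4ha1 and Pdk1 are HIF targets that went down. P4ha1 (ENSMUSG00000019916, chromosome 10, 59323296 to 59373304, + strand), a collagen prolyl hydroxylase subunit, gave 249, 206, 279 and 291 CPM in naive TSLPR-ST2- libraries and 167, 255, 206 and 246 in TSLPR-ST2+, against 171, 189, 182 and 188 in TSLPR+ST2- and 171, 176, 172 and 152 in TSLPR+ST2+. In cancer mice it gave 259, 276, 236 and 255 CPM in TSLPR-ST2- libraries, 258, 244, 211 and 215 in TSLPR-ST2+, 188, 262, 245 and 154 in TSLPR+ST2- and 167, 153, 163 and 164 in TSLPR+ST2+. Double-positive libraries of cancer mice all lay below every TSLPR- library of cancer mice, while the TSLPR+ST2- gate of cancer mice spread over both. P4ha1 was 1.34-fold lower in TSLPR+ cells (log2 difference -0.42 ± 0.07 (SE), adjusted p = 8.29e-05 by edgeR), in 8 of 8 mice. Pdk1 (ENSMUSG00000006494, chromosome 2, 71873224 to 71903858, + strand) had 147 ± 52.0 CPM in TSLPR- and 97.6 ± 19.7 CPM in TSLPR+ libraries (SD, n = 16 each; log2 difference -0.58 ± 0.15 (SE), adjusted p = 0.00717 by edgeR), lower in 7 of 8 mice. Its call was lost with the mitochondrial share of counts as a covariate (edgeR adjusted p = 0.0908).

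In the pentose phosphate pathway, transaldolase (Taldo1) rose from 291 ± 26.1 to 333 ± 58.0 CPM (SD, n = 16 each; log2 difference 0.19 ± 0.06 (SE), adjusted p = 0.033 by edgeR), higher in 8 of 8 mice. Its call was lost in 4 of 8 fits that left out a mouse (without mouse 1, 2, 4 or 5), without the ST2+ libraries of mouse 5 (edgeR adjusted p = 0.0547) and with the mitochondrial share as a covariate (0.163). The NADPH-producing enzymes G6pdx (-0.02) and Pgd (-0.02), transketolase Tkt (-0.12) and the phosphoglucomutase family gene Pgm2 (0.13) did not pass, values being log2 differences.

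Of the 10 members that rose in TSLPR+ Treg, 7 held ACGTG in a promoter, and Gpi1, Taldo1 and Tpi1 did not. Of the 3 that fell, P4ha1 held it, and of the 20 others with a promoter entry 14 did.

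The TSLPR comparison was also made within each ST2 stratum, a choice made after seeing the data. Among ST2- cells 8 members rose and P4ha1 fell, where 5.12% of all genes were called, and the members' median log2 difference was 0.14 against 0.02 over all genes. Those that rose were Tpi1 (1.03), Gapdh (0.48), Hif1a (0.76), Pkm (0.36), Pgk1 (0.54), Gpi1 (0.32), Pgam1 (0.61) and Mif (0.39), as log2 differences. In fits that left out a mouse, Pgam1 and Mif each lost the call in 7 of 8, P4ha1 in 4 and Gpi1 in 3, and leaving out mouse 5 lowered the count from 9 to 5. Mif also lost it without the ST2+ libraries of mouse 5 (edgeR adjusted p = 0.0514). Tpi1, Gapdh, Hif1a, Pkm and Pgk1 kept the call in all 17 alternatives. Among ST2+ cells 2 rose (Tpi1, 0.61, and Gapdh, 0.35) and 2 fell (P4ha1, -0.45, and Eno1, -0.23), where 5.24% of all genes were called, with medians of 0.11 and 0.00. Eno1 lost this call without the ST2+ libraries of mouse 5 (edgeR adjusted p = 0.0882) and in 4 of 8 fits that left out a mouse (without mouse 2, 4, 5 or 7). A test of the difference between ST2+ and ST2- cells called 0 of 34 members and 0% of all genes by edgeR, and 0 members by DESeq2. At an unadjusted p under 0.05 it gave 1 member upward (Slc2a3) and 4 downward, where 7.36% of all genes passed that limit, led by Hif1a (log2 difference -0.61 ± 0.18 (SE), edgeR adjusted p = 0.308). The TSLPR effect on Hif1a was 0.76 among ST2- and 0.15 among ST2+ cells, and these were not shown to differ.

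Markers of other cells moved with the TSLPR gate. Of 10 macrophage and dendritic cell markers, 9 were called higher in TSLPR+ libraries, with summed levels of 607.9 to 5059 CPM (median 2143) in TSLPR+ and 38.5 to 2872 CPM (median 661) in TSLPR- libraries. Of 6 B and plasma cell markers 5 were higher (41.9 to 822 against 31.5 to 127 CPM), and of 7 tested epithelial markers 2 were (46.5 to 4662 against 12.2 to 91.4 CPM). Of 5 tested markers of CD8, NK and gamma-delta T cells 1 was higher (90.6 to 376 against 47.0 to 178 CPM), of 2 tested mast cell markers 1 was higher (0.225 to 19.5 against 0.723 to 8.34 CPM), and of 2 tested stromal and endothelial markers 1 was lower (48.3 to 172 against 95.9 to 241 CPM). The stromal and endothelial sum was mostly Pecam1 (44.7 to 241 CPM over all Treg libraries). Col1a1, Col3a1 and Vwf had at most 8.77, 3.63 and 3.92 CPM, so the sum says little of stromal cells. Of the Treg and T cell markers themselves, 5 of 8 were higher (5294 to 6613 against 4490.0 to 5581 CPM). Of 4 neutrophil markers the 1 tested was not called, and S100a9, Retnlg and Tpsab1 were at 0 in every library. The part of these cells in the members' differences was not tested. In bulk samples, fewer cells of a type and less RNA per cell cannot be told apart.

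By ST2, 1 member rose and 4 fell, where 6.04% of all genes were called. The median log2 difference of the members was 0.13 against -0.01 over all genes. G6pdx, the rate-limiting enzyme of the pentose phosphate pathway (ENSMUSG00000031400, chromosome X, 74409483 to 74429194, - strand), was the member that rose. In naive mice it had 97.9, 104, 108 and 103 CPM in TSLPR-ST2- libraries, 107, 93.6, 122 and 99.8 in TSLPR+ST2-, 127, 132, 149.7 and 127 in TSLPR-ST2+ and 138, 139, 139.8 and 110.1 in TSLPR+ST2+. In cancer mice it had 89.5, 70.0, 86.4 and 76.7 CPM in TSLPR-ST2- libraries, 104, 96.5, 73.5 and 67.3 in TSLPR+ST2-, 132, 104, 127 and 145 in TSLPR-ST2+ and 116, 111, 117 and 109 in TSLPR+ST2+. All 8 ST2+ libraries of cancer mice lay above all 8 of their ST2- libraries, but only just. The closest, TSLPR-ST2+ of mouse 6 and TSLPR+ST2- of mouse 5, both rounded to 104 CPM. In naive mice 1 library, the TSLPR+ST2+ library of mouse 4, fell among the ST2- values. G6pdx was 1.36-fold higher in ST2+ cells, in 8 of 8 mice (log2 difference 0.44 ± 0.07 (SE), adjusted p = 8.38e-05 by edgeR). The other enzymes of the pathway had smaller log2 differences that did not pass, 0.15 for Pgd, 0.16 for Tkt and 0.18 for Taldo1.

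Eno1 and Mif were lower in ST2+ cells of all 8 mice. In naive mice Eno1 had 817, 850.2, 802 and 792 CPM in TSLPR-ST2- libraries, 733, 790.2, 768 and 837 in TSLPR+ST2-, 739.8, 690.5, 634 and 671 in TSLPR-ST2+ and 716, 569.5, 496 and 564 in TSLPR+ST2+. In cancer mice Eno1 had 765, 688, 743 and 787 CPM in TSLPR-ST2- libraries, 683, 685, 755 and 739 in TSLPR+ST2-, 716, 610.0, 718 and 725 in TSLPR-ST2+ and 539, 584, 578 and 634 in TSLPR+ST2+. The arms overlapped in both statuses through the TSLPR-ST2+ gate, and the TSLPR+ST2+ gate was the lowest on average. The log2 difference was -0.27 ± 0.04 (SE) (edgeR adjusted p = 0.000144). Mif, a cytokine and HIF target (ENSMUSG00000033307, chromosome 10, 75859353 to 75860240, - strand), fell from 320.2 ± 56.5 to 239 ± 48.3 CPM (SD, n = 16 each; log2 difference -0.41 ± 0.08 (SE), adjusted p = 0.00194 by edgeR). Its 16 ST2+ libraries ranged from 154 to 318 (median 255) CPM and its 16 ST2- libraries from 235 to 436 (median 323) CPM, so the arms overlapped.

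Gapdh (log2 difference -0.16 ± 0.05 (SE), adjusted p = 0.0477 by edgeR) and P4ha1 (log2 difference -0.22 ± 0.07 (SE), adjusted p = 0.0492 by edgeR) fell by less and stood at the limit of the test. With the mouse as a replicate block the edgeR adjusted p of P4ha1 was 0.0678, and without the ST2+ libraries of mouse 5 it was 0.0507 and that of Gapdh 0.0679. Without the TSLPR+ST2+ library of mouse 7 that of P4ha1 was 0.0675. Leaving out whole mice ended the P4ha1 call in 6 of 8 fits (all but those without mouse 2 or 8) and the Gapdh call in 7 of 8 (all but that without mouse 1). The 29 other members had log2 differences from -0.25 (Pfkm) to 0.86 (Hk2). The Hk2 value rested on the mouse 7 library and was -0.03 without it. The largest after it were Aldoc (0.58), Slc2a3 (0.47), Pfkfb3 (0.45) and Bnip3 (0.44), and none of the 29 passed. Of 10 macrophage and dendritic cell markers 8 were higher in ST2+ libraries, with sums of 723 to 5059 CPM (median 2199) against 38.5 to 2307 CPM (median 604). Of 8 Treg and T cell markers 1 was higher and 3 were lower (sums 4490.0 to 6474 against 4713 to 6613 CPM), of 7 tested epithelial markers 1 was higher (list sums 12.2 to 4662 against 25.9 to 105 CPM), and the 1 tested neutrophil marker was higher (list sums of at most 14.8 against 4.04 CPM). Of 5 tested markers of CD8, NK and gamma-delta T cells 1 was lower (47.0 to 376 against 81.4 to 343 CPM) and of 2 tested stromal and endothelial markers 1 was lower (48.3 to 196 against 95.1 to 241 CPM). The stromal and endothelial sum was again mostly Pecam1. None of the 6 B and plasma cell markers (37.2 to 822 against 31.5 to 409 CPM) or the 2 tested mast cell markers was called by edgeR, where 2 and 1 had an unadjusted p under 0.05. The part of these cells in the ST2 differences was not tested.

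**Figure D3:**
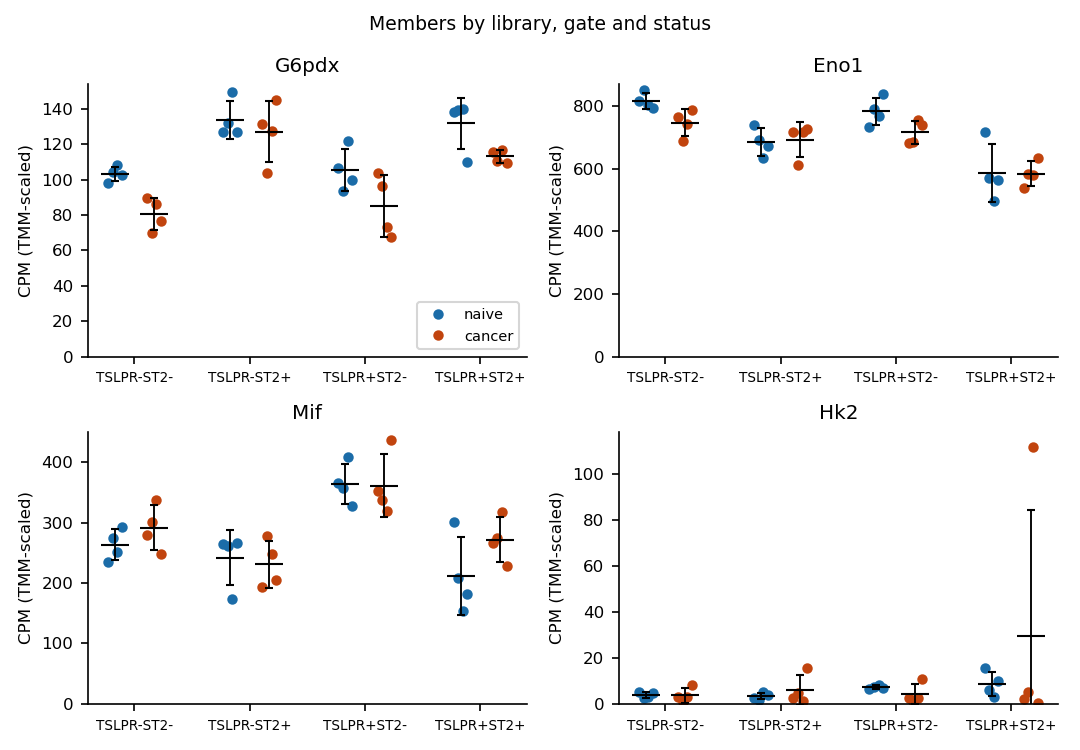
CPM of G6pdx, Eno1, Mif and Hk2 in each of the 32 Treg libraries by gate and status (points, 4 libraries a group; horizontal bar and whiskers, mean ± SD). G6pdx was higher and Eno1 and Mif lower in ST2+ gates, and Hk2 was at most 15.4 CPM except for 111 CPM in the TSLPR+ST2+ library of mouse 7.

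No member passed the test between cancer and naive mice when the gates were combined. With the gates of a mouse summed, 0 of 34 members were called by edgeR, where 1.21% of 15338 genes were. Summing raw counts weights each gate by its depth. The TSLPR+ST2+ libraries were shallower in cancer mice (4038718 to 5816224 counts) than in naive mice (6607867 to 8839946). The per-mouse values therefore mix the weight of the gates with status, and the part of this was not tested. At an unadjusted p under 0.05, 9 members were lower and 0 higher, where 16.9% of all genes passed that limit in either direction. DESeq2 called 2 members lower (5.88%), where it called 7.48% of all genes. The median log2 difference was -0.10 against 0.01 over all genes, and 24 of 34 estimates were negative. In 5 members the 4 cancer mice lay below the 4 naive mice, namely Pkm, Pfkl, Ldha, Slc16a3 and G6pdx, and in 0 above. Of all genes 5.8% lay wholly below and 5.53% wholly above. Pkm had 901, 955, 885 and 871 CPM in naive mice 1 to 4 and 819, 793, 733 and 791 in cancer mice 5 to 8 (log2 difference -0.20 ± 0.05 (SE), adjusted p = 0.089 by edgeR). Pfkl, the liver-type phosphofructokinase, had 173, 171, 165 and 159 CPM in naive and 143, 143, 127 and 112 in cancer mice (log2 difference -0.35 ± 0.09 (SE), adjusted p = 0.098 by edgeR). G6pdx had 117, 119.9, 133 and 111 CPM in naive and 110.3, 93.4, 100.0 and 101 in cancer mice (log2 difference -0.25 ± 0.08 (SE), adjusted p = 0.174 by edgeR). These groups did not overlap, and none of the differences passed the adjustment.

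Within the double-negative gate 0 of 34 members were called, where 0.209% of all genes were, and 1 (G6pdx, log2 difference -0.36 ± 0.13 (SE)) had an unadjusted p under 0.05 by edgeR, as did 7.41% of all genes. Ldhb followed by p, with 124, 107, 101 and 149.6 CPM in naive and 90.8, 109, 77.7 and 106 CPM in cancer mice (log2 difference -0.33). Aldoa came next, with 529, 557, 527 and 453 CPM in naive and 654, 580.0, 711 and 485 CPM in cancer mice (log2 difference 0.23). These values overlapped, while G6pdx and Eno1 had all cancer libraries below the naive ones, as did 2.99% of all genes. The members' median was -0.06 against 0.00 over all genes. In TSLPR-ST2+ cells 0 of 34 were called, where 0.202% of all genes were, and 2 members had an unadjusted p under 0.05, as did 10.6% of all genes, with a median of 0.04 against 0.00. Ldhb had 132, 186, 99.3 and 150.4 CPM in naive and 131, 103, 74.0 and 93.3 CPM in cancer mice (log2 difference -0.50 ± 0.18 (SE)). Pgm2 had 63.8, 64.5, 41.4 and 68.7 CPM in naive and 38.5, 23.9, 50.2 and 29.3 CPM in cancer mice (-0.75 ± 0.32 (SE)). Vhl followed, with 30.9, 32.2, 50.3 and 13.7 CPM in naive and 27.3, 56.9, 55.5 and 64.5 CPM in cancer mice (0.68), and the groups overlapped in all of these. DESeq2 called 0 members in these gates and in TSLPR+ST2- cells. Hif1a in TSLPR-ST2+ cells was 196, 198, 179.5 and 197 CPM in naive and 202, 238, 210.3 and 265 CPM in cancer mice. It was the one member of that gate whose cancer libraries all lay above the naive ones, as 1.53% of all genes did.

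In TSLPR+ST2- cells 0 of 34 members were called, where 0.0471% of all genes were. Of the 34, 28 were estimated lower in cancer, with a median log2 difference of -0.24 against 0.00 over all genes, and 5 had an unadjusted p under 0.05 by edgeR, as did 7.4% of all genes. Gapdh, Pkm, Ldha, Ldhb and Egln3 had all 4 cancer libraries below all 4 naive ones, as did 4.02% of all genes. Ldha (ENSMUSG00000063229, chromosome 7, 46841475 to 46855627, + strand) went from 1641, 1656, 1731 and 1852 CPM in naive to 1254, 1607, 1349.8 and 1164 CPM in cancer mice (log2 difference -0.36 ± 0.12 (SE), adjusted p = 0.467 by edgeR). Pkm went from 1054, 1115, 1073 and 1127 to 885, 1023, 736 and 914 CPM (log2 difference -0.30 ± 0.10 (SE), adjusted p = 0.467 by edgeR), and Gapdh had the values given above for this gate (log2 difference -0.24 ± 0.10 (SE), adjusted p = 0.606 by edgeR). None passed over all genes. The summed CPM of the members in this gate was 8508, 8794, 8999 and 8885 in naive mice and 7464, 8324, 7484 and 7246 in cancer mice, which did not overlap. Abundant members, among them Ldha, Pkm and Gapdh, weigh most in this sum, so it is not separate from their differences. In the other 3 gates the sums of naive and cancer libraries overlapped. In TSLPR+ST2- cells 10 of 10 macrophage and dendritic cell markers were estimated higher in cancer (sums 608 to 2307 against 765 to 929.9 CPM) and 7 of 8 Treg and T cell markers lower (5300.0 to 6095 against 5784 to 6613 CPM), with 0 of either called, and their part was not tested.

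**Figure D4:**
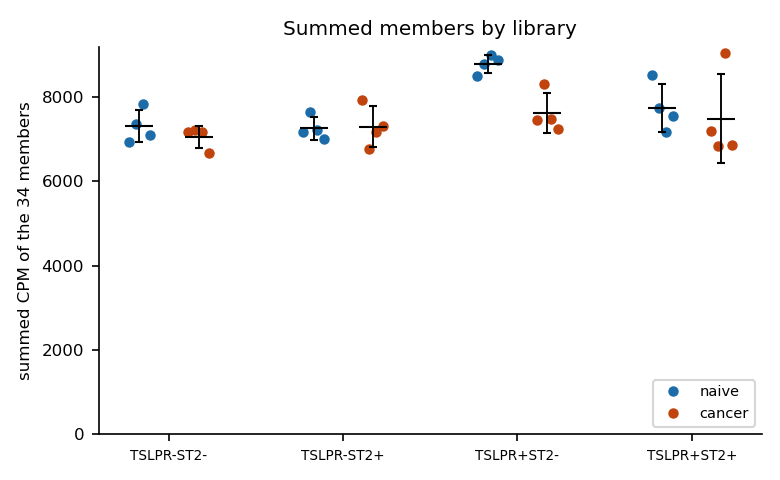
Summed CPM of the 34 members in each Treg library by gate and status (points, 4 libraries a group; horizontal bar and whiskers, mean ± SD). Naive TSLPR+ST2- libraries were at 8508 to 8999 and cancer TSLPR+ST2- libraries at 7246 to 8324, while the highest cancer library, at 9064, was the TSLPR+ST2+ library of mouse 7.

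In TSLPR+ST2+ cells 1 of 34 members was called, where 4.16% of all genes were, and the members' median was -0.10 against 0.05. The member was Pkm, which fell from 965, 967, 861 and 943 CPM in naive to 686, 693, 785 and 779.9 CPM in cancer mice, with no overlap (log2 difference -0.34 ± 0.10 (SE), adjusted p = 0.04 by edgeR). By edgeR it lost the call without the mouse 7 library (adjusted p = 0.0511), without the ST2+ libraries of mouse 5 (0.0835), and with the mitochondrial share of counts as a covariate (0.647, at a log2 difference of -0.28). That covariate lowered the calls over all genes in this gate from 618 to 4. It also lost the call in the fits without mouse 1, 2, 3, 4, 5 or 6. The mitochondrial share in this gate ran from 1.43% to 3.23% in the cancer libraries, and from 0.618% to 1.24% in the naive ones, which did not overlap. It did not overlap in TSLPR-ST2- cells (1.25% to 1.60% in cancer, 0.80% to 1.21% in naive libraries) or TSLPR+ST2- cells either. In TSLPR-ST2+ cells it overlapped. Hk1 (213, 182, 310.2 and 246 CPM in naive and 81.2, 122, 171 and 158 CPM in cancer mice; log2 difference -0.84 ± 0.25 (SE), adjusted p = 0.0539 by edgeR) and Slc2a3 (112, 172, 251 and 145 CPM in naive and 114, 69.3, 68.3 and 92.3 CPM in cancer mice; log2 difference -0.99 ± 0.32 (SE), adjusted p = 0.0765 by edgeR) came next and did not pass. Pfkl, Pfkfb3 and Pgd also had all cancer libraries below the naive ones, and Bnip3 had them all above. Of all genes 5.48% lay wholly below and 3.98% wholly above in this gate. In this gate 4 of 7 tested epithelial markers were called higher in cancer, with sums of 125, 186, 219.5 and 4662 CPM against 143 to 204 CPM in naive mice, and their part was not tested.

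**Figure D5:**
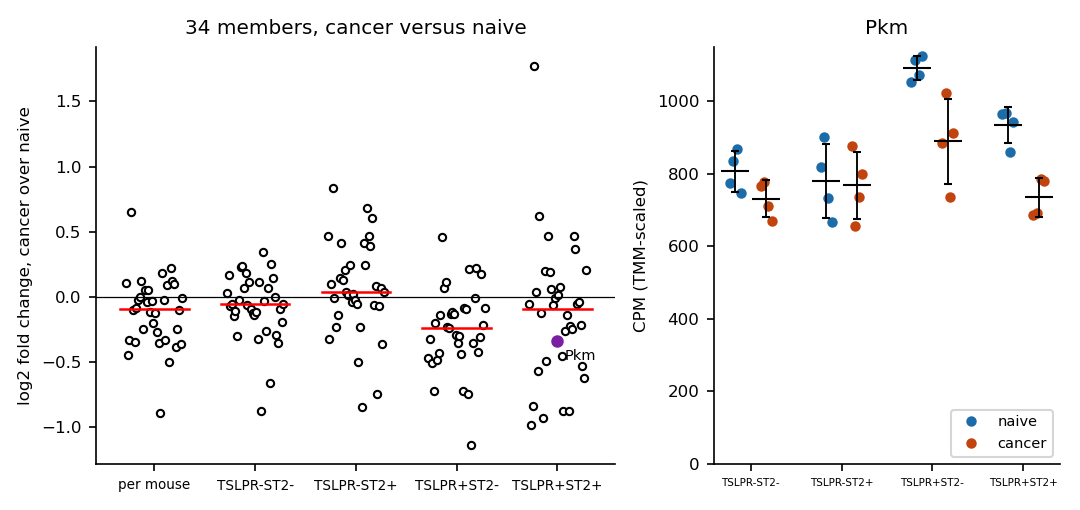
Log2 fold change of each of the 34 members, cancer over naive, per mouse and in each gate (left; red line, median; filled point, adjusted p under 0.05), and CPM of Pkm by library (right; 4 libraries a group, mean ± SD). The median was -0.24 in TSLPR+ST2- cells, and Pkm in TSLPR+ST2+ cells was the one call.

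Tests of whether the cancer difference depended on the gate called no member. For ST2+ against ST2- cells 0 of 34 members and 0% of all genes were called, and 1 member (Gapdh, 0.26 ± 0.10 (SE)) had an unadjusted p under 0.05 by edgeR (6.23% of all genes; median 0.09 against 0.02 over all genes). For TSLPR+ against TSLPR- cells 0 of 34 members and 0% of all genes were called, with Hk1 (-0.69 ± 0.25 (SE)), Vhl (-1.02 ± 0.37 (SE)) and Pkm (-0.24 ± 0.10 (SE)) at an unadjusted p under 0.05, all more negative in TSLPR+ cells (7.93% of all genes; median -0.15 against 0.01). For TSLPR+ST2+ cells against the mean of the other 3 gates 0 of 34 were called, where 0.0673% of all genes were, and 7 members had an unadjusted p under 0.05 (11.3% of all genes; median -0.04 against 0.04). DESeq2 gave 0 member calls in these 3 tests as well. No member's cancer difference was shown to differ between gates.

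Other genes of the same pathways, outside the 34, were counted from 4 lists. With TSLPR, where 13.4% of all genes were called, 4 of 30, 1 of 12, 3 of 26 and 3 of 15 tested genes of these lists were, shares that are near or below it except in the last. By ST2 6.04% of all genes were called and 2, 1, 0 and 1 genes of the lists, and with cancer in TSLPR+ST2+ cells 4.16% of all genes and 1, 0, 3 and 3 genes. Such small counts are given as a description. Of the 30 tested genes of glycolysis and pyruvate use, 3 rose and 1 fell with TSLPR. Pdk3, a further pyruvate dehydrogenase kinase, went from 55.6 ± 14.9 to 89.7 ± 12.9 CPM (SD, n = 16 each; log2 difference 0.70 ± 0.11 (SE), adjusted p = 4.57e-05 by edgeR), opposite to Pdk1. Bpgm (0.66) rose too, and Adpgk (-0.52), an ADP-dependent glucokinase, fell. Slc2a6 rose as well, from 0.469 ± 1.29 to 6.63 ± 6.94 CPM (edgeR adjusted p = 0.00292), with 10.4 to 21.8 CPM in naive TSLPR+ST2+ libraries. By ST2, Bpgm rose (0.65) and Eno3, the muscle enolase, fell with Eno1, from 69.2 ± 17.6 to 35.7 ± 15.4 CPM (log2 difference -0.97 ± 0.18 (SE), adjusted p = 0.000706 by edgeR).

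Of 12 tested genes of the pentose phosphate pathway, Prps1 fell with TSLPR (-0.34) and Tktl1 rose with ST2 (log2 difference 2.35 ± 0.71 (SE), adjusted p = 0.0449 by edgeR). Tktl1 was at 11.4 to 28.6 CPM in cancer TSLPR-ST2+, 9.40 to 35.0 in cancer TSLPR+ST2+ and 6.55 to 11.65 in naive TSLPR-ST2+ libraries. In naive TSLPR+ST2+ libraries it was at 0 to 4.04 CPM, within the 0 to 9.975 CPM of naive TSLPR-ST2- libraries. Of 26 tested HIF regulators and targets, 2 rose with TSLPR (Bhlhe40, 1.40, and Elob, 0.23) and Kdm4b fell (-0.94), and none passed by ST2 in edgeR's test, where 0 also had an unadjusted p under 0.05. In TSLPR+ST2+ cells 3 of them rose with cancer, Elob (0.56), Eloc (0.70) and Higd1a (1.35). Higd1a was at 70.1 to 401 CPM there, with the highest value in the mouse 7 library. Of 15 growth-signalling genes, Myc, an activator of glycolytic genes, fell with TSLPR from 373 ± 94.7 to 232 ± 72.9 CPM (log2 difference -0.70 ± 0.09 (SE), adjusted p = 1.15e-06 by edgeR), Rictor fell (-0.54) and the amino acid transporter chain Slc3a2 rose (0.22). Myc fell with ST2 as well (log2 difference -0.48 ± 0.09 (SE), adjusted p = 0.000667 by edgeR). With cancer in TSLPR+ST2+ cells, Myc (-0.62), Slc1a5 (-0.48) and Slc3a2 (-0.44) fell, and Adpgk fell (-1.05). Per mouse, Adpgk was the 1 gene of the 4 lists called, at log2 difference -0.70 ± 0.13 (SE), adjusted p = 0.0346 by edgeR.

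The single library of naive Foxp3-negative CD44low T cells allowed no test. Scaled together with the Treg libraries, 26 of its 34 member values fell within the range of the 16 naive Treg libraries. Pdk1, at 309.8 CPM, lay above that range (60.4 to 228 CPM). Egln3 had 0 counts in this library, against 3.54 to 40.7 CPM in naive Treg, and Slc2a3 had 13.05 CPM against 51.7 to 257 CPM. Tpi1 (120.0 CPM), Gapdh (487 CPM), Hif1a (110.1 CPM), G6pdx (86.2 CPM) and Hk2 (0.567 CPM) were also below the lowest naive Treg library.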

How the data were processed

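RNA of 33 sorted libraries was measured by sequencing. The deposited values are whole-number counts per Ensembl gene that the authors made against GRCm38; HTSeq 0.4.1, Picard 1.134, FastQC 0.11.3 and SAMtools 1.2 are named, per the submitters' processing notes. The aligner, annotation release and strand setting were not given in the sources used here.

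Symbols, positions and exon lengths came from GENCODE M21 (GRCm38). Counts were scaled with TMM and filtered with filterByExpr (minimum count 10, minimum total 15). All 32 Treg libraries entered 1 group-means fit of 14861 genes with edgeR 4.0.16 (robust quasi-likelihood, R 4.3.3), and the cancer comparison per mouse used counts summed over the 4 gates (15338 genes). A call is a Benjamini-Hochberg adjusted p under 0.05 over all genes tested. The fit was checked on simulated data. Values are CPM; ± is the SD of libraries unless marked SE. Fold changes of low genes carry edgeR's prior count.

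Alternatives were RLE scaling, no filter, DESeq2 1.42.0, thinning to 4038718 counts, the mitochondrial share as a covariate, limma 3.58.1 with the mouse as a random block, edgeR with the mouse as a fixed block, fits of 1 gate, and leaving out each mouse. The comparisons of TSLPR within ST2 strata, and the fits without libraries of mouse 5 or mouse 7, were added after seeing the data. Same-numbered libraries come from 1 animal. Deviations from group means correlated at a mean of 0.00993 over 48 same-mouse pairs and -0.00331 over 144 other pairs of the same status. Centring on group means ties the second value to the first, so it is not an independent reference.

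The members, the 4 pathway lists and the cell type marker lists were chosen with earlier results of these data known. Values by library, or as the mean and SD of an arm, are given for members called in any comparison and for the 3 with the smallest p in each comparison other than the tests of differences between differences, related enzymes are compared by level per length, and up to 4 called genes are named per other list.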

Additional observations from a re-analysis of the deposited data

Results flagged for a closer look

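In 15 members with a call in any comparison, 120 groups of 4 libraries were searched for a library far from the other 3 by Dixon's criterion. This criterion picks about 1 in 20 groups by chance, and 5 were found. Tpi1 was 225 CPM in the TSLPR+ST2- library of cancer mouse 8, with the nearest of its group at 294 CPM. G6pdx was 110.1 CPM in the TSLPR+ST2+ library of naive mouse 4, against 138 CPM for the nearest. In the TSLPR-ST2+ library of naive mouse 3 both Hif1a (179.5 CPM, nearest 196 CPM) and Mif (173 CPM, nearest 262 CPM) were low. Eno1 was 610.0 CPM in the TSLPR-ST2+ library of cancer mouse 6, against 716 CPM for the nearest. All 5 were the lowest of their group.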

How the results depend on the processing

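No member's called direction reversed under any alternative that was run. Taken over all comparisons, the fits without the filter kept 21 single-member calls of the main fit and lost 11. With TSLPR, 13 members were called, and 10 to 14 when a mouse was left out. With the mouse as a replicate block the count was 13 by edgeR and 15 by limma. With ST2, 5 were called, 3 with RLE scaling, 3 without the filter, 3 without the ST2+ libraries of mouse 5, 3 to 5 when a mouse was left out, and 4 with edgeR's replicate block, which ended the P4ha1 call. Among ST2- cells, 9 members were called with TSLPR, and 5 to 9 when a mouse was left out. The difference of the TSLPR effect between ST2 strata gave 1 call with the mitochondrial share as a covariate, against 0. For cancer in TSLPR+ST2+ cells, the 1 call became 3 with DESeq2 (which called 8.05% of all genes), 2 after thinning, and 0 with RLE scaling, without the filter, with the mitochondrial share, in the 8 libraries of the gate alone, without the ST2+ libraries of mouse 5, and without the library of mouse 7, and it was 0 to 2 when a mouse was left out, which changed the members called: without mouse 1 it was Mif, higher, and without mouse 8 Pkm, lower, and Tpi1, higher. Per mouse, 0 calls became 2 with DESeq2. The cause of these changes was not tested. The edgeR and limma replicate blocks ended no other single-member call of the main fit. After thinning every library to the lowest total, 13 members were called with TSLPR and 5 with ST2, as at full depth. Each library holds 200 cells and each group 4 mice, which limits the precision of every value.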
